A study of Rattus norvegicus with 42 samples.

Results

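Voltage-gated calcium channel subunits were followed in the hippocampus of rat pups given phenobarbital (PB), levetiracetam (LEV) or vehicle (VEH). The members were all transcripts whose symbol was Cacna1a, Cacna1b, Cacna1c, Cacna1d, Cacna1e, Cacna1g, Cacna1h, Cacna1i, Cacna2d1 or Cacna2d2. These 10 symbols gave 14 of the 15516 transcripts counted, and 12 of the 14 passed the filter on low counts that kept 13062 transcripts in all. Male wild type Sprague Dawley pups received saline (VEH), PB at 75 mg/kg or LEV at 200 mg/kg as 1 intraperitoneal injection on postnatal day 7, and hippocampi were dissected 72 h later. Each library held the RNA of 1 animal, and per the labels each litter gave 1 animal to each treatment group. The comparisons rest on 13 VEH, 14 PB and 14 LEV animals with 9499492 to 14488134 estimated counts each, after 1 VEH animal labelled as excluded (animal 7) was left out. The sample codes come in 2 forms, 1 for animals 1 to 6 of every group and 1 for animals 7 to 14, and the form was used as the batch. Both drugs are given against seizures in newborns.

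Voltage-gated calcium channels open when the membrane depolarizes and let calcium into the cell. The pore is formed by 1 large alpha1 subunit, whose gene sets the current type. Cacna1c and Cacna1d encode the L-type channels that couple activity to gene transcription, Cacna1a the P/Q-type and Cacna1b the N-type channels that trigger transmitter release, and Cacna1e the R-type channel. Cacna1g, Cacna1h and Cacna1i encode the low-threshold T-type channels, which support burst firing. The alpha2delta subunits, among them Cacna2d1 and Cacna2d2, bring the channels to the membrane. Those encoded by Cacna2d1 and Cacna2d2 are binding partners of gabapentin.

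Start site sequences were available for 7 of the 10 genes (RefSeq, GRCr8, 250 bases before to 50 bases after the start); Cacna1g, Cacna1h and Cacna1i had no entry. The 3 shown belong to Cacna1b, Cacna1e and Cacna2d1, the genes of the pairs of transcripts with the highest r from animal to animal (values further on). Capitals mark the GC box GGGCGG on either strand, so that CCGCCC marks the opposite strand, and matches that overlap run together. The windows lie on the minus strand at chr3:27944236-27944535 for Cacna1b, chr13:69444761-69445060 for Cacna1e and chr4:20330098-20330397 for the first of 3 listed starts of Cacna2d1.
Cacna1b: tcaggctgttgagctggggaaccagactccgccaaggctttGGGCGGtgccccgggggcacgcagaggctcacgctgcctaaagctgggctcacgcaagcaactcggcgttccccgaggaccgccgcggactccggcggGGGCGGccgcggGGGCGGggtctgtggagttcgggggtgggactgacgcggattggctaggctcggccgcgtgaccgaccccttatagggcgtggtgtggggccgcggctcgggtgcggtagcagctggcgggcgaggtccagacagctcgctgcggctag
Cacna1e: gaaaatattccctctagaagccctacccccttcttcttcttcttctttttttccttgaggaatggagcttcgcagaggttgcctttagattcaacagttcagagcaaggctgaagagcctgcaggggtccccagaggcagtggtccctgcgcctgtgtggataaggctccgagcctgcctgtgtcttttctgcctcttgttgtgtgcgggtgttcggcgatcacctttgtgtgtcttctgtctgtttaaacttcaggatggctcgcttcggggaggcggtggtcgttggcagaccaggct
Cacna2d1: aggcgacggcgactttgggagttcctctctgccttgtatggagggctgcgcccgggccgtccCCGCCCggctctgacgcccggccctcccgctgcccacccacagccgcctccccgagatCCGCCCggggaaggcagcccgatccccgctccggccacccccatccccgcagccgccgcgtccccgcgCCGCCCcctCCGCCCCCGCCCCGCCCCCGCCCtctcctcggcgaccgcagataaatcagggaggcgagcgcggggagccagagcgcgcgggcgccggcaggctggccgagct
The Cacna1b window held 3 GC boxes, that of Cacna2d1 held 7 and that of Cacna1e held 0. The windows are listed by gene symbol, so that of Cacna1b is not tied to either of its 2 transcripts. Of all 33469 RefSeq windows of this length, 33.1% held at least 1 GC box. The cyclic AMP response element TGACGTCA, present in 1.83% of all windows, and the TATA box TATAAA, present in 14.2%, were searched on both strands and matched in none of the members' windows. The windows were rich in G and C in most members, from 51.7% in Cacna1c and 53.7% in Cacna1e to 88.7% in Cacna1d, against a median of 51.7% over all windows.

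A pair of VEH libraries stood apart before any comparison. In the library labelled VEH animal 1 the Y-linked transcripts Eif2s3y and Ddx3 had 1 and 0 counts, whereas the other 40 analysed animals had 705 to 1028 and 475 to 891, although the pups are described as male. Without this library 0 of 12 members were called in any comparison, as with it. In the VEH animal labelled as excluded, 7 of 12 members lay above all 13 other VEH animals and 2 lay below. Of all tested transcripts, 31.8% lay above and 31.9% below these 13 animals. Hippocampal excitatory neuron markers were present in every group, with a summed level of 2951 to 4115 CPM in VEH. Markers of choroid plexus, tissue next to the hippocampus, ranged from 5.63 to 7362 CPM over the libraries. In bulk tissue, fewer cells of a type and less RNA per cell cannot be told apart.

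No calcium channel subunit passed the test after either drug. Transcripts were called at an adjusted p under 0.05 (edgeR quasi-likelihood test, Benjamini-Hochberg over all 13062 transcripts), with or without a fold limit of 0.322 on the log2 scale. Of the members, 0 of 12 were called between PB and VEH, where 704 transcripts (5.39%) were called over the whole table and 0.605% passed the fold limit too. For LEV against VEH the counts were 0 of 12 members and 1 transcript in all (0.00766%, and 0% with the fold limit). Between PB and LEV, 0 of 12 members were called against 4.45% of all transcripts (0.582% with the fold limit). At an unadjusted p under 0.05 there were 2, 1 and 1 members in the 3 comparisons, against 20.2%, 5.84% and 19.6% of all transcripts. DESeq2 also called 0 members in each comparison.

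The intervals show how large a change, averaged over the forms of the sample code, could have been missed. The 95% interval of the fold change lay inside that fold limit in both directions for 9 of 12 members between PB and VEH and for 10 of 12 between LEV and VEH. The same held for 9 of 12 when PB was set against LEV. The widest bounds were 0.877- to 1.38-fold after PB, 0.802- to 1.34-fold after LEV and 0.767- to 1.37-fold between the drugs. The log2 fold change was positive in 10 of 12 members after PB, against 51.9% of all transcripts. Its median was 0.073 against 0.0046 over all transcripts. After LEV the log2 fold change was positive in 8 of 12, against 50.2%, with a median of 0.018 against 0.00033. Members were correlated from animal to animal (values further on), so these counts are not of independent values. In every member and comparison the groups overlapped. The share of all transcripts with such overlap was not counted. PB and VEH also overlapped in called transcripts such as Hpca (values further on), so overlap does not set the members apart.

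**Figure D1:**
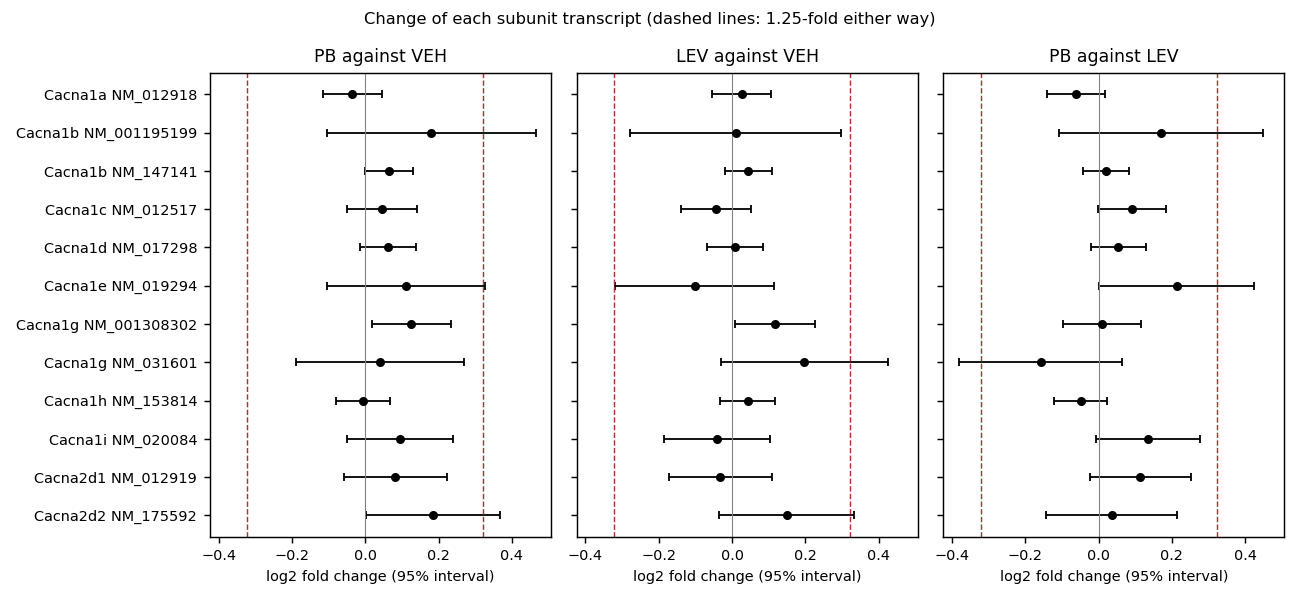
Log2 fold change (x axis) of the 12 tested subunit transcripts (rows) in 3 comparisons, with points for the estimate and bars for the 95% interval. The dashed lines mark the fold limit, 0.322 either way, and enclose 9, 10 and 9 of the 12 intervals.

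The L-type subunits differed little between the groups. Levels are given as TMM-normalized counts scaled to a common depth (CPM), as lowest, median and highest animal, and were compared between groups of 1 transcript, never between genes. Cacna1c (NM_012517, rn6 chr4:150641066-151269160) had 77.1, 95.7 and 114 CPM in VEH, 86.9, 98.5 and 125 in PB and 77.3, 92.8 and 104 in LEV. The 3 ranges covered almost the same values, and the log2 fold change was 0.046 (SE 0.047, adjusted p = 0.642) for PB and -0.045 (SE 0.047, adjusted p = 0.949) for LEV. Cacna1d (NM_017298, rn6 chr16:6112150-6404958) had 80.2, 91.4 and 101 CPM in VEH, 83.9, 94.4 and 105 in PB and 76.6, 92.1 and 100.4 in LEV. Its mean was 89.98 ± 6.68 (SD, n = 13) in VEH and 93.7 ± 6.15 (SD, n = 14) in PB. The PB mean thus lay above the VEH mean by less than 1 SD, with a log2 fold change of 0.062 (SE 0.038, adjusted p = 0.381).

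The presynaptic channels Cacna1a and Cacna1b were also close in the 3 groups. Cacna1a (P/Q-type, NM_012918, rn6 chr19:25526751-25749551) had 296, 336 and 376 CPM in VEH, 271, 327 and 353 in PB and 275, 343 and 374 in LEV. Its 95% interval after PB ran from 0.923- to 1.03-fold. The main transcript of Cacna1b (N-type, NM_147141, rn6 chr3:1740056-1924910) had 251, 273 and 313 CPM in VEH, 261, 292 and 318 in PB and 263, 287 and 314 in LEV. Compared with VEH animals of the same code form, 12 of 14 PB animals exceeded the mean, but the log2 fold change of 0.064 (SE 0.032) did not pass (adjusted p = 0.248).

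A second Cacna1b transcript, NM_001195199 (rn6 chr3:1742624-1924828), spread far more widely. It had 3.71, 14.4 and 19.8 CPM in VEH, 9.54, 14.5 and 19.3 in PB and 8.16, 12.9 and 17.4 in LEV. It took a mean of 3.34% to 5.56% of the Cacna1b counts over the groups and code forms, and reads shared with NM_147141 were divided by an estimation step, so its level is less certain. Its coefficient of variation was 36.4% in VEH against 6.9% for NM_147141. The PB interval was the widest among the members, from 0.930- to 1.38-fold.

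The R-type subunit Cacna1e (NM_019294, rn6 chr13:71907093-72367988) had 64.0, 101 and 128 CPM in VEH, 75.8, 103 and 134 in PB and 50.4, 94.2 and 117 in LEV. The lowest animal was a LEV pup and the highest a PB pup. Between PB and LEV the log2 fold change was 0.21 (SE 0.10), with 12 of 14 PB animals above the LEV mean of their code form. It had the smallest p of the members in that comparison, and it did not pass (adjusted p = 0.251).

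Among the T-type subunits, Cacna1g came nearest to a call. Its main transcript NM_001308302 (rn6 chr10:82129074-82197521) had 146, 171 and 207 CPM in VEH, 152, 195 and 211 in PB and 138, 193 and 226 in LEV. The PB and LEV medians lay above the VEH median by a similar amount, within wide overlap. The log2 fold change was 0.13 (SE 0.05, adjusted p = 0.170) after PB and 0.12 (SE 0.05, adjusted p = 0.822) after LEV, with 11 of 14 animals above the VEH mean of their code form for each drug. The 2 comparisons share their VEH animals. Leaving out PB animal 5 brought the PB value to an adjusted p of 0.0480, the only such fit in which a member was called; over all 41 fits that left out 1 animal each, 0 or 1 members were called.

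The other Cacna1g transcript, NM_031601, held a mean of 14.8% to 19.4% of the Cacna1g counts over the groups and code forms and had 25.2, 36.8 and 51.4 CPM in VEH, 26.5, 35.9 and 57.8 in PB and 21.6, 41.8 and 60.7 in LEV. Its log2 fold change was 0.039 (SE 0.11, adjusted p = 0.885) after PB and 0.20 (SE 0.11, adjusted p = 0.856) after LEV. Cacna1h (NM_153814, rn6 chr10:14730941-14788618) had 196, 218 and 252 CPM in VEH, 198, 221 and 246 in PB and 187, 228 and 252 in LEV. Its fold change after PB had an interval of 0.946- to 1.05-fold, the narrowest of the T-type transcripts. Cacna1i (NM_020084, rn6 chr7:121521787-121619301) had 69.3, 83.9 and 101 CPM in VEH, 73.4, 92.0 and 106 in PB and 57.6, 82.8 and 109 in LEV, with a log2 fold change of 0.095 (SE 0.072, adjusted p = 0.493) after PB.

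For the alpha2delta subunits, Cacna2d1 (NM_012919, rn6 chr4:15710415-16130842) had 74.6, 115 and 127 CPM in VEH, 84.4, 122 and 137 in PB and 92.2, 107 and 127 in LEV. Its log2 fold change was 0.082 (SE 0.069, adjusted p = 0.549) after PB and -0.032 (SE 0.069, adjusted p = 0.989) after LEV. The other 2 Cacna2d1 transcripts, NM_001110847 and NM_001110848, were not tested: their medians were 0.0649 and 0.532 estimated counts, with at most 22.4 and 15.4 in any animal. Cacna2d2 (NM_175592, rn6 chr8:116154736-116283747) had 10.5, 17.7 and 22.7 CPM in VEH, 15.03, 19.0 and 28.9 in PB and 15.2, 19.1 and 26.2 in LEV. Its log2 fold change of 0.18 (SE 0.09) after PB was the largest of the members, and it did not pass (adjusted p = 0.242). It had 112 to 315 counts per animal, fewer than any tested member other than Cacna1b NM_001195199.

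**Figure D2:**
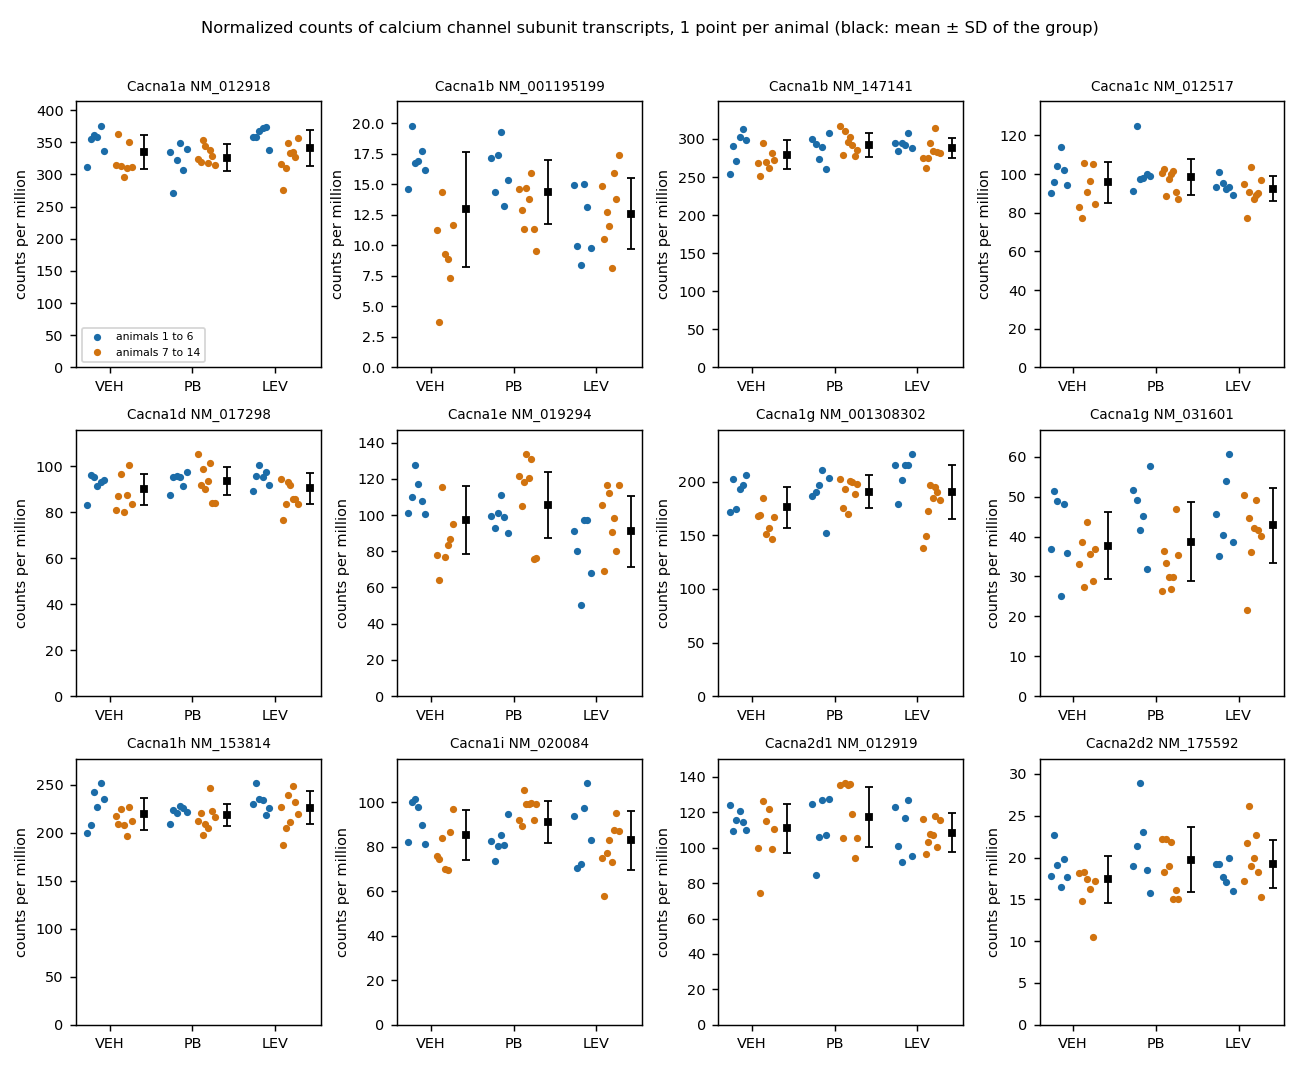
CPM (y axis, from 0) of each tested subunit transcript in every animal of VEH, PB and LEV, blue for animals 1 to 6 and orange for animals 7 to 14, with the mean ± SD of each group in black. The groups overlap in all 12 panels, which does not set the members apart from called transcripts such as Hpca. The spread is widest relative to the level in Cacna1b NM_001195199.

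More members were called between the forms of the sample code than between treatments. In animals 7 to 14 against animals 1 to 6, adjusted for treatment, 3 of 12 members were lower and 0 higher, against 30.2% of all transcripts called, 15.2% lower and 15.1% higher. Cacna1g NM_031601 was lower by a log2 value of -0.29 (SE 0.09, adjusted p = 0.0123) and Cacna1g NM_001308302 by -0.15 (SE 0.04, adjusted p = 0.00619). Cacna1b NM_001195199 was lower by -0.33 (SE 0.12, adjusted p = 0.0274). All 3 were called without VEH animal 1 as well. These values average over the groups, and only Cacna1g NM_031601 had a lower later median in each group. From earlier to later animals, the Cacna1b NM_001195199 median fell from 16.8 to 9.25 CPM in VEH and 16.3 to 13.3 in PB. In LEV it rose from 11.6 to 13.3. The Cacna1g NM_001308302 median fell from 195 to 167 CPM in VEH and 216 to 183.99 in LEV. In PB it was 194 and 195. The share of members called was close to that of all transcripts.

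Within the later animals, the only members called after PB were 2 T-type transcripts. In animals 7 to 14 PB against VEH called 2 of 12 members, both higher, where 6.32% of all transcripts were called and 2.67% were called higher. Cacna1i had 69.3, 75.8 and 97.1 CPM in the 7 VEH animals and 89.1, 99.1 and 106 in the 8 PB animals, a log2 fold change of 0.29 (SE 0.09, adjusted p = 0.0376). Only the highest VEH animal reached into the PB range. Cacna1g NM_001308302 had 146, 167 and 185 CPM in VEH and 170, 195 and 203 in PB, a log2 fold change of 0.23 (SE 0.07, adjusted p = 0.0370). In animals 1 to 6, where 0.0842% of all transcripts were called, 0 members were. There both transcripts had the other sign, -0.15 (SE 0.09) for Cacna1i and -0.0064 (SE 0.08) for Cacna1g NM_001308302. The other T-type transcripts did not follow in the later animals, at -0.075 (SE 0.15) for Cacna1g NM_031601 and 0.019 (SE 0.05) for Cacna1h. Outside the T-type, positive values without a call were 0.45 (SE 0.17, adjusted p = 0.101) for Cacna1b NM_001195199 and 0.36 (SE 0.13, adjusted p = 0.0780) for Cacna1e. Cacna1b NM_147141 had 0.12 (SE 0.04, adjusted p = 0.0757). Of all members only Cacna1g NM_031601 was negative there. Reads shared by the 2 Cacna1g transcripts were divided by estimation. In the later animals NM_001308302 took a mean of 82.4% of Cacna1g counts in VEH and 85.2% in PB.

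The difference between the code forms in the PB change was not established for any member. It was 0.44 (SE 0.13, adjusted p = 0.165) for Cacna1i, 0.52 (SE 0.19, adjusted p = 0.282) for Cacna1e and 0.23 (SE 0.10, adjusted p = 0.379) for Cacna1g NM_001308302, and 0.0689% of all transcripts were called for such a difference. The calls in the later animals were also fragile under alternatives chosen after seeing the data. When each of the 15 later VEH and PB animals was left out in turn, Cacna1g NM_001308302 was called in 7 fits and Cacna1i in 6, with log2 fold changes of 0.20 to 0.26 and 0.26 to 0.34. The number of members called ran from 0, without VEH animals 11 or 12 or PB animals 7, 9, 11 or 12, to 5 without VEH animal 10. With animals 7 to 14 fitted alone 1 member was called (Cacna1i, adjusted p = 0.0463, and Cacna1g at 0.0564), and with DESeq2 3. In the later animals the share of counts taken by 18S ribosomal RNA (Rn18s) also differed between groups, with medians of 1.13% (VEH), 0.694% (PB) and 0.507% (LEV), against 1.12%, 1.15% and 1.03% in the earlier animals. Its part in these values was not tested.

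After LEV, the minor Cacna1b transcript went opposite ways in the 2 code forms. In animals 1 to 6, Cacna1b NM_001195199 had 14.6, 16.8 and 19.8 CPM in VEH and 8.41, 11.6 and 14.98 in LEV, a log2 fold change of -0.51 (SE 0.18, adjusted p = 0.185). In animals 7 to 14 it had 3.71, 9.25 and 14.4 CPM in VEH and 8.16, 13.3 and 17.4 in LEV, a log2 fold change of 0.46 (SE 0.17, adjusted p = 0.731). The LEV median thus lay below the VEH median in the earlier animals and above it in the later ones, with overlap in both. In the earlier animals only VEH animal 1 (14.6 CPM) reached into the LEV range, and the next lowest VEH animal had 16.1. Neither change was called, nor was any other member, where 1.45% and 0.0383% of all transcripts were. The difference between them was 0.97 (SE 0.25, adjusted p = 0.0449), and this was 1 of 12 members called for such a difference against 0.842% of all transcripts.

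That call was close to the limit, and DESeq2 and the omission of single animals were tried on it after seeing the data. DESeq2 gave an adjusted p of 0.0126 and a fit on VEH and LEV alone 0.0926. When each of the 27 VEH and LEV animals was left out in turn the difference lay between 0.837 and 1.102 and passed in 7 fits, and without VEH animal 1 it was 1.01 (adjusted p = 0.0594). Its share of the Cacna1b counts moved likewise, from 5.56% ± 0.459 (SD, n = 6) in VEH to 3.87% ± 0.863 (SD, n = 6) in LEV in the earlier animals. In the later animals it was 3.34% ± 1.07 (SD, n = 7) in VEH and 4.41% ± 0.932 (SD, n = 8) in LEV. Cacna1e had the next largest difference, with -0.46 (SE 0.14) in animals 1 to 6 and 0.20 (SE 0.13) in animals 7 to 14 (difference 0.66, adjusted p = 0.0860). For PB against LEV, 0 of 12 members differed between the code forms, against 0.023% of all transcripts.

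**Figure D3:**
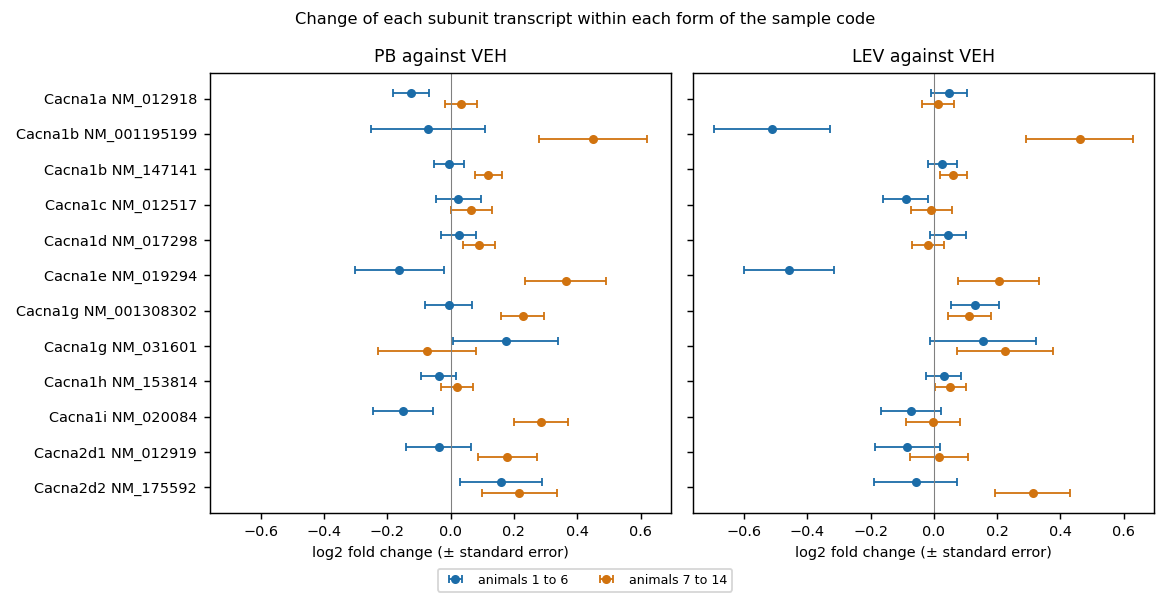
Log2 fold change (x axis) of each subunit transcript after PB (left) and LEV (right) within animals 1 to 6 (blue) and 7 to 14 (orange), with bars for ± the standard error. Cacna1i after PB (-0.15 and 0.29) and Cacna1b NM_001195199 after LEV (-0.51 and 0.46) lie on opposite sides of 0.

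With the means of groups and of code forms removed, several subunits varied together from animal to animal. Correlations were taken over 41 animals on log2 CPM with the group and code form means removed, for 66 pairs of transcripts, with permutation p-values (100000 draws, two-sided) adjusted over the 66 pairs. Of the 64 pairs of different genes, 20 passed, all with a positive r, and 14.1% had an r of at least 0.5 against 1.16% of all pairs of tested transcripts. Their median r was 0.224 against -0.0025 over all pairs. Because all transcripts of an animal share 1 library, these values also carry whatever differs between libraries. Group and code form means were removed separately, so differences between code forms in the change after a drug remain in them.

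The closest pair was Cacna1b NM_001195199 with Cacna1e. Their r was 0.753 and rho 0.738 (each permutation p = 1e-05, the smallest that 100000 draws give, adjusted p = 0.00033 and 0.00066), and r was 0.681 without the 2 animals farthest from the median. The earlier animals gave an r of 0.859 and the later ones 0.701. Cacna1b NM_001195199 and Cacna1e also had the 2 largest differences between code forms in the LEV change (0.97 and 0.66). The part of these differences in their r was not tested. Cacna2d1 joined both, with r = 0.668 and rho = 0.602 to Cacna1e (permutation p = 2e-05 and 6e-05, adjusted p = 0.00044 and 0.00132, r = 0.587 without 2 animals) and r = 0.613 and rho = 0.462 to Cacna1b NM_001195199 (permutation p = 7e-05 and 0.00233, adjusted p = 0.000924 and 0.0118, r = 0.413 without 2 animals). Cacna1b NM_147141 was closest to Cacna1g NM_001308302 (r = 0.629, rho = 0.624, permutation p = 1e-05 and 2e-05, adjusted p = 0.00033 and 0.00066, r = 0.559 without 2 animals). Cacna1a went with Cacna1i (r = 0.616, rho = 0.53, permutation p = 4e-05 and 0.0006, adjusted p = 0.00066 and 0.00871, r = 0.457 without 2 animals). The 2 transcripts of Cacna1b had an r of only 0.37 with each other and the 2 of Cacna1g an r of 0.07. The lowest r was that of Cacna1h with Cacna2d2, -0.26 (permutation p = 0.0995, adjusted p = 0.204).

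**Figure D4:**
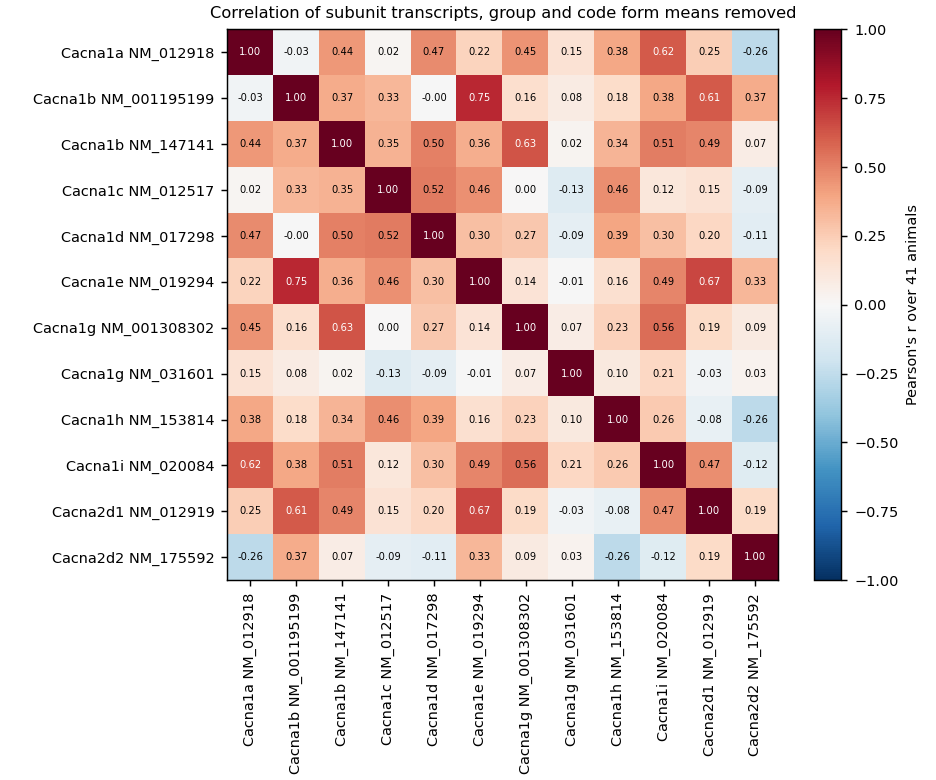
Pearson's r between the 12 subunit transcripts over 41 animals after removal of group and code form means (colour scale from -1 to 1, values printed). The strongest pairs off the diagonal are Cacna1b NM_001195199 with Cacna1e (0.75) and Cacna1e with Cacna2d1 (0.67).

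The transcripts of other genes whose pattern was most like that of each member were sought over all tested transcripts in the same 41 animals, and are a description, as the highest r of many. For Cacna1e they were Tnik (r = 0.917), Kif1b (0.917) and Klhl11 (0.908), the highest of all members. Cacna1a was nearest to Rph3a (0.823), which encodes rabphilin, a synaptic vesicle protein, and to Adgrl1 (0.804) and Sema7a (0.801). Cacna1b NM_001195199 was nearest to Atp2a2 NM_001110823 (0.871), a minor transcript of the endoplasmic reticulum calcium pump. That transcript had 1.27 to 66.9 CPM in VEH, against 1097 to 1295 for Atp2a2 NR_027839. Cacna1b NM_147141 was nearest to Mtor (0.785). Cacna1c was nearest to Prox1 (0.736), a marker of dentate granule cells, and Cacna1d to Myo9b (0.699). Cacna1g NM_001308302 was nearest to Gtf3c1 (0.782), Cacna1h to Cluh (0.72) and Cacna1i to Shank1 (0.777), a scaffold of excitatory synapses. Cacna2d1 was nearest to Sptbn1 (0.853), and Cacna2d2 to Plcb4 (0.645). Cacna1g NM_031601 had the weakest partner, Bmyc (0.599).

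The remaining subunits of the channel family also gave no call. Of 16 further symbols, 11 were tested and 0 were called in each of the 3 comparisons. Beta subunits sit on the inner face of the channel and aid its delivery to the membrane, and 2 of the 4 had the smallest p of the 11 after PB, with negative values. Cacnb2 had 51.6, 55.3 and 66.3 CPM in VEH and 46.5, 51.1 and 58.9 in PB, and 13 of 14 PB animals were under the mean of VEH animals with the same code form (log2 fold change -0.13, SE 0.04, adjusted p = 0.0740). Cacnb1 had a log2 fold change of -0.086 (SE 0.03, adjusted p = 0.104) after PB, and -0.10 (SE 0.03, adjusted p = 0.0560) between PB and LEV. The other beta subunits had positive values, 0.13 for Cacnb4 (SE 0.06, adjusted p = 0.253) and 0.018 for Cacnb3 (SE 0.04, adjusted p = 0.852). Cacnb4 was also positive after LEV, at 0.15 (SE 0.06, adjusted p = 0.812), and after each drug 11 of 14 animals lay above the mean of VEH animals with the same code form. Of the other 7, Cacna2d3 (-0.11), Cacng2 (-0.069), Cacng3 (-0.19), Cacng7 (-0.11) and Cacng8 (-0.14) had negative and Cacng4 (0.045) and Cacng5 (0.20) positive values after PB, none of them called. The median of the 11 was -0.086 after PB, whereas that of the 12 members was 0.073. Cacna1f, Cacna1s, Cacna2d4, Cacng1 and Cacng6 were not tested and had 0 to 18 estimated counts in any animal.

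Around the channels, few transcripts were called except those of calcium-dependent enzymes and sensors. Of 28 tested transcripts of proteins that bind the channels at the membrane and the release site, 1 was lower after PB against 3.46% of all transcripts called lower and 1.93% called higher. Between PB and LEV 2 were lower, against 2.78% of all transcripts called lower and 1.67% higher; both were Snap25, a SNARE protein of vesicle fusion, in 2 transcripts with identical values (-0.18, SE 0.05, adjusted p = 0.0236). Of 33 tested transcripts of calcium stores, pumps and exchangers, 0 were called in any comparison, and LEV called 0 in each of these lists.

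Of 24 tested transcripts of calcium-dependent kinases, phosphatases and their targets, 8 fell after PB and 0 rose. The share lower was 33.3%, against 3.46% of all transcripts called lower. The list was chosen with earlier results of these data known, so this share is a description and no test. Hpca, the hippocampal calcium sensor hippocalcin, had 758, 857 and 1168 CPM in VEH, 495, 715 and 935 in PB and 630, 844 and 1101 in LEV. It fell by 0.34 on the log2 scale (SE 0.08, adjusted p = 0.00562), and it was the only one of the 8 past the fold limit. Ncald, which encodes the related sensor neurocalcin, had 491, 515 and 570 CPM in VEH and 329, 461 and 521 in PB (-0.22, SE 0.04, adjusted p = 0.00149). Camk2b NM_021739, a subunit of the main synaptic calcium/calmodulin kinase, had 1175, 1294 and 1438 CPM in VEH and 921, 1151 and 1251 in PB (-0.19, SE 0.04, adjusted p = 0.00595). In each of these 3 transcripts, all PB animals but 1 were under the mean of VEH animals sharing their code form.

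The calcineurin subunits Ppp3cb (-0.11, adjusted p = 0.0116) and Ppp3r1 (-0.18, adjusted p = 0.0179) fell as well, as did Ppp3ca (-0.13, adjusted p = 0.0340) and Camk2a (-0.26, adjusted p = 0.0364), which were named after their values were seen. After LEV 0 of the 24 were called. Against LEV, PB had 6 lower and 1 higher, the latter another transcript of Camk2b, NM_001042356. Against VEH, NM_001042356 was also positive after PB, at 0.12 (SE 0.06, adjusted p = 0.228), without a call. Reads shared by Camk2b transcripts were divided by estimation, so the fall of NM_021739 is that of 1 transcript and not of the gene. The number lower after PB was 7 without VEH animal 1 and 5 without PB animal 7, without the code form term or with all 14 VEH animals.

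Cell type markers were summed in the same libraries. Over all tested transcripts, 3.46% were called lower and 1.93% higher after PB. The summed CPM of 6 excitatory neuron markers came to a median of 3409 for VEH animals, 2965 after PB and 3362 after LEV (2430 to 3535 in PB), and 1 of the 6 was called lower after PB (median log2 fold change of the 6, -0.041). Interneuron markers (7 transcripts) summed to a median of 586 in VEH, of 493 after PB and of 587 after LEV, with 2 called lower (median log2 fold change after PB -0.205). All 3 tested skeletal muscle transcripts were lower after PB, at a summed level of only 5.76 to 13.3 CPM in PB against 9.31 to 31.6 in VEH. The part of these markers in the falls above was not tested. Among 12 astrocyte transcripts 1 was called lower and 1 higher, among 10 of myelinating oligodendrocytes 1 was lower, and among 3 of neighbouring grey matter 1 was higher. Microglia, oligodendrocyte precursor, endothelium, choroid plexus, ependyma and red blood cell lists had 0 called after PB, and LEV called 0 in every list. Without a call, the 7 choroid plexus transcripts summed to a median of 236 CPM in VEH, 718 after PB and 1833 after LEV, with single animals from 5.63 to 7362, and their median log2 fold change was 0.627 after PB and 0.883 after LEV. The 10 transcripts of myelinating oligodendrocytes had a median of -0.068 after PB and 0.434 after LEV. The part of these lists in the members' values was not tested either.

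**Figure D5:**
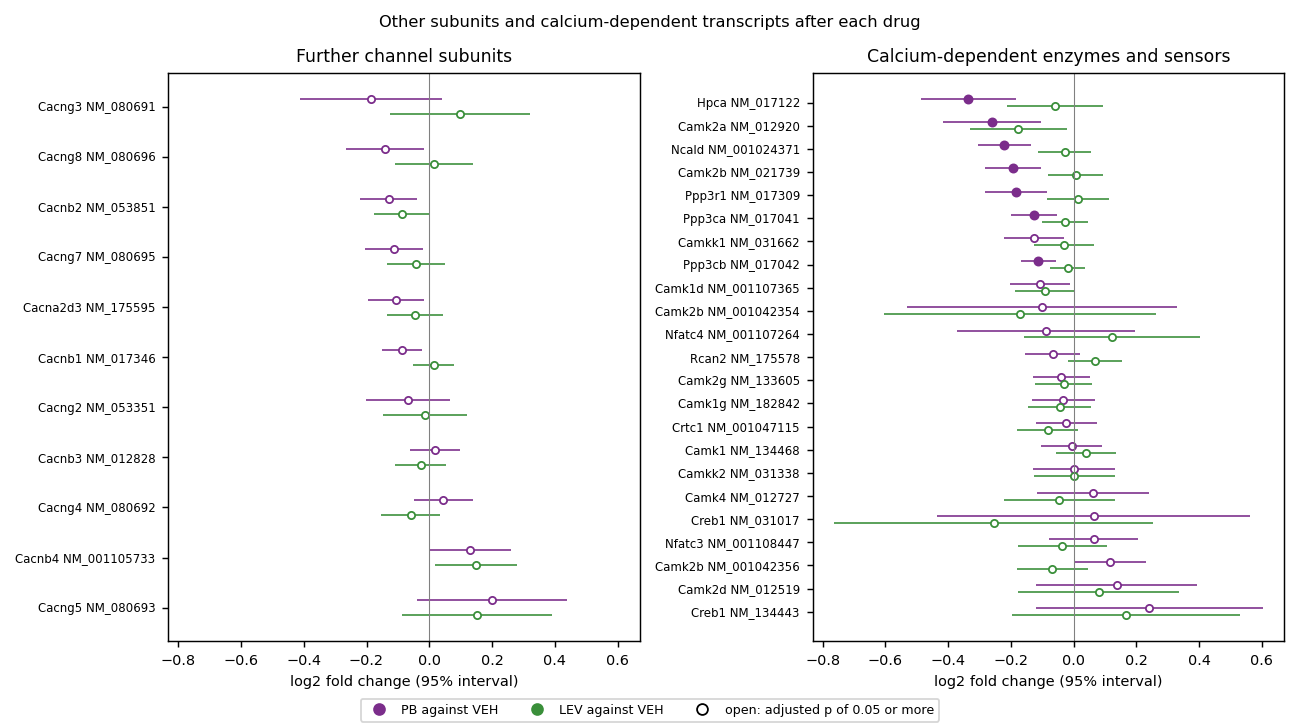
Log2 fold change (x axis) with 95% intervals after PB (purple) and LEV (green) for 11 further channel subunits (left) and 23 of the 24 calcium-dependent transcripts (right); filled points had an adjusted p under 0.05. The 7 filled points are all PB values below 0 in the right panel, led by Hpca at -0.34.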

How the data were processed

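Hippocampal RNA of 42 pups was sequenced (NEBNext Ultra library kit). Per the labels and methods, the authors aligned reads to rn6 with STAR 2.7.3a and quantified RefSeq transcripts with Partek E/M, which divides shared reads between transcripts. The deposited values are these estimated counts before normalization, and 13.7% of them are not whole. The deposited table of the authors' own comparisons (DESeq2 p-values, fold changes and group means) was not used. Strand use in counting was not given in the sources used here.

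After rounding, the estimated counts went into edgeR 4.0.16 (R 4.3.3): TMM, filterByExpr by treatment, 1 model of 3 groups with the code form (animals 1 to 6 or 7 to 14) as an additive term, glmQLFTest and Benjamini-Hochberg adjustment. CPM are TMM-normalized. Changes within and between code forms came from the interaction model. Alternatives included DESeq2 1.42.0, other filters and designs, and leaving out each animal. Counts limit precision as the standard errors show. Litters are not given per animal.

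The members and lists were chosen with earlier results of these data known. Named were all members and further subunits, and of the other lists up to 5 called transcripts per list and comparison with the smallest p; 2 called transcripts of these lists are counted but not reported by name here. Start site windows and motifs came from RefSeq (GRCr8) and transcript positions from the deposited file (rn6). Levels were not compared between genes, since transcript lengths were not used here.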

Additional observations from a re-analysis of the deposited data

Results flagged for a closer look

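The VEH animal labelled as excluded entered no comparison, and 7 of the 12 tested members lay above all 13 other VEH animals in it. These were Cacna1b NM_001195199 at 61.0 CPM against at most 19.8 in the others, Cacna2d2 at 43.9 against 22.6, Cacna1i at 156 against 101, Cacna1g NM_031601 at 66.6 against 51.3, Cacna1e at 152 against 127, Cacna1a at 445 against 375 and Cacna1c at 117 against 114. Cacna1b NM_147141 (245) and Cacna1d (66.5) lay below all 13. Of all tested transcripts 31.8% lay above and 31.9% below the 13 animals, so this library stood apart well beyond the calcium channels.

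The LEV change of Cacna1b NM_001195199 differed between the code forms by 0.97 on the log2 scale (adjusted p = 0.0449, interaction term in edgeR), from -0.51 in animals 1 to 6 to 0.46 in animals 7 to 14. With each of the 27 VEH and LEV animals omitted in turn it passed 7 times, and it did not pass without VEH animal 1 (adjusted p = 0.0594) or in a fit on VEH and LEV alone (adjusted p = 0.0926).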

How the results depend on the processing

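The number of members called was 0 in each comparison with DESeq2, DESeq2 size factors, without a filter, with a minimum mean of 50 counts, without the code form term, with a code form by treatment term, with a replicate block, with VEH animal 7 kept (all 14 VEH animals), from fits of just the 2 groups at issue, with counts summed per symbol, and after subtraction of batch effects followed by DESeq2; the lowest adjusted p of a member over these was 0.0913. When each animal was left out, it was 0 to 1 for PB against VEH and 0 for the other comparisons. All transcripts called between PB and VEH numbered 410 without the code form term, 447 with the replicate block, 392 with all 14 VEH animals and 1095 after subtraction, and 442 (without PB animal 7) to 891 with 1 animal left out. Between LEV and VEH they numbered 10 with DESeq2, 2 without a filter, 2 at a minimum mean of 50, 0 without the code form term, with the block, with all 14 VEH animals and with only the 2 groups, 17 with the code form by treatment term, 66 after subtraction, and 0 to 5 with 1 animal left out. The transcripts called, PB against LEV, numbered 288 without the code form term, 174 with all 14 VEH animals, 1093 after subtraction, and 283 to 778 with 1 animal left out, lowest without PB animal 7 and 362 without LEV animal 2. The calcium-dependent transcripts lower after PB, tried under these settings after seeing the data, numbered 5 without the code form term and with all 14 VEH animals, 6 with the block, and 5 to 8 with 1 animal left out.

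Uncalled members whose sign turned were Cacna1b NM_001195199 after LEV (-0.044 without the code form term, -0.025 with the code form by treatment term, -0.0076 with the block, -0.38 with all 14 VEH animals, -0.031 after subtraction), Cacna1g NM_001308302 between PB and LEV (-0.010 with the code form by treatment term, -0.019 summed per symbol, -0.012 after subtraction) and Cacna1d after LEV (-0.0028 with the block). With all 14 VEH animals Cacna1b NM_001195199 (-0.19) and Cacna1g NM_031601 (-0.052) turned after PB, and Cacna1a (-0.010) and Cacna2d2 (-0.0057) after LEV. With 1 animal left out the log2 fold change spanned 0 for Cacna1b NM_001195199 (-0.0752 to 0.064), Cacna1d (-0.00263 to 0.0261) after LEV, Cacna1g NM_031601 (-0.0108 to 0.0739), Cacna1h (-0.0229 to 0.0079) after PB, and Cacna1g NM_001308302 (-0.0188 to 0.0386) and Cacna2d2 (-0.0112 to 0.0800) between PB and LEV. The cause of these shifts was not tested.

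The labels do not say whether animals with the same number share a litter. Same-numbered animals had a median r of -0.0138, -0.0997 and 0.00299 between VEH and PB, VEH and LEV, and PB and LEV. Only 4 of 13, 3 of 13 and 4 of 14 pairs were over 0.1. A low r does not settle whether litters were shared, so the replicate block is a check and no established pairing. Low counts limit Cacna1b NM_001195199 (38.3 to 245 estimated counts) and Cacna2d2 most.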
